A study of Mus musculus with 18 samples.

Results

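Histone genes were chosen by name from the probeset annotation of mouse bone marrow arrays: every gene with a probeset assigned to a single symbol beginning H1f, H2ac, H2bc, H3c or H4c plus a number, the names that current annotation gives to the former Hist1h, Hist2h, Hist3h and Hist4h genes. The rule used no measured value. It found 13 genes with 18 probesets, among 18194 genes with a single-symbol probeset and 45101 probesets in all. Of the 13, 6 encode linker histone H1 (H1f2, H1f4, H1f6, H1f7, H1f8 and H1f10), 1 encodes H2A (H2ac19), 3 encode H2B (H2bc18, H2bc21 and H2bc22), 3 encode H3 (H3c4, H3c7 and H3c11) and 0 encode H4. Each gene was read from its brightest probeset, and 12 of the 13 passed the filter on low values, a mean at or above the 30th percentile of all probesets (3.30 on the log2 scale). The exception, H1f8, had a mean of 3.29.

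Replication-dependent histone genes supply the histones that package newly copied DNA. Their mRNAs rise in S phase, lack introns, and end in a conserved stem-loop bound by the stem-loop binding protein Slbp rather than in a poly(A) tail, and most of the genes lie in a few clusters that share the transcriptional co-activator Npat. Labelling from an oligo-dT primer, the usual route to biotinylated cRNA, favours polyadenylated RNA, so such arrays read these mRNAs only in part; some histone genes, H1f2 and H2bc21 among them, are known to make polyadenylated transcripts as well. In marrow, cycling precursors of red cells, granulocytes and B cells are the main dividing cells.

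By their known biology 9 of the 13 are replication-dependent. The rule also took in H1f6 and H1f7, the H1 subtypes of male germ cells, H1f8, that of the oocyte, and H1f10, a replacement H1 expressed outside S phase. Of the 13 genes, 7 lie on chromosome 13, 3 on chromosome 3, 2 on chromosome 6 and 1 on chromosome 15. The large clusters of near-identical H2A, H2B, H3 and H4 genes were mostly read by 17 further probesets that the annotation gives to several histone genes at once (2 for H2A, 5 each for H2B, H3 and H4). These are described as a set of their own, since their signal cannot be split between genes.

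The arrays measured total RNA from flash-frozen marrow of 18 C57Bl6 mice, 1 array per mouse. The groups were 4 wild-type mice (WT), 4 mice engineered to overexpress the long non-coding RNA CCAT2 with the G allele throughout the body (CCAT2-G), 4 with the T allele (CCAT2-T) and 6 labelled CCAT2-GT. In the design DRAI- stands for the 8 mice of the G and T groups and DRAI+ for the 6 CCAT2-GT mice; neither that status nor how the GT mice were made is spelled out. Age and transgene promoter are not stated in the labels, and the study's title places it in myeloid malignancy. Values are log2 expression normalized between arrays with RMA, a difference of 1 is a 2-fold change, and brightness was not compared between probesets.

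Array width varied within and between groups. On 5 arrays, called narrow here, the values' interquartile range ran from 2.90 to 3.07: these were replicates 1 and 2 of both WT and CCAT2-T, and the first of CCAT2-G. It was 3.15 or more on the 13 wider arrays, which include every CCAT2-GT array. Xist lay above 8 in 4 mice (CCAT2-T replicate 3, CCAT2-GT replicates 2, 3 and 5). No WT or CCAT2-G mouse was among them, so high Xist was unevenly spread between the groups. CCAT2-T replicate 3 was the only such mouse outside CCAT2-GT. In bulk marrow, fewer cells of a type and less RNA per cell cannot be told apart. The titles call the mice biological replicates, and p-values measure the spread between these animals.

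The stretch before the start site is shown for 5 of the histone genes whose values differed between mice, because replication-dependent promoters carry short known motifs. Of the 13 genes, 11 matched an entry of the RefSeq promoter table (mouse build GRCm38.p6), and H2bc21 and H3c7 did not. Each line gives the 150 bases before the table's start site, 5′ to 3′ on the gene's strand. Capitals mark every match, on either strand, to CCAAT (reverse complement ATTGG), the TATA forms TATAAA and TATATA, the H1 box AAACACA and the octamer ATTTGCAT; the TATA forms can overlap each other. H1f2 lies at chr13:23738807-23739531, with its window at chr13:23738657-23738806 on the plus strand. The window of H1f4 is chr13:23622559-23622708 on the minus strand, that of H2ac19 chr3:96240375-96240524 on the minus strand, that of H2bc22 chr13:21787338-21787487 on the plus strand and that of H3c4 chr13:23575613-23575762 on the plus strand.
H1f2: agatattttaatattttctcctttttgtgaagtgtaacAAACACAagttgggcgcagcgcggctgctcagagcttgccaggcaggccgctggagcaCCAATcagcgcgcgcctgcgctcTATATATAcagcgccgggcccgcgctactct
H1f4: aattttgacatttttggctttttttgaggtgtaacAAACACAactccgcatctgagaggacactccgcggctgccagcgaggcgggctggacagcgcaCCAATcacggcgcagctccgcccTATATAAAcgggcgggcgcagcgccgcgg
H2ac19: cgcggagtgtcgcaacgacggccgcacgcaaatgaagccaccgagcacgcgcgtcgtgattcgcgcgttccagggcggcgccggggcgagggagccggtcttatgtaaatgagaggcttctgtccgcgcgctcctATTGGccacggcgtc
H2bc22: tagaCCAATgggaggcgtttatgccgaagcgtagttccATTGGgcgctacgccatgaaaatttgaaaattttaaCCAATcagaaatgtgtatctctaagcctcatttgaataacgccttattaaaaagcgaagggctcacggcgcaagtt
H3c4: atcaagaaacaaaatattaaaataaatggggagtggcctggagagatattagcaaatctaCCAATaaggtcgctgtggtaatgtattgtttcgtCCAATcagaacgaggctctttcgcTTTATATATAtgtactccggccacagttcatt

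A CCAAT match was present in 9 of the 11 windows, and in 7 of the 7 replication-dependent ones, against 24.5% of 32851 mouse promoters of the same length. In H1f2 and H1f4 it began 54 and 52 bases before the start, with an H1 box at 112 and 115 bases and a TATA form between it and the start. The H1 box was found in 3 of 11 (H1f2, H1f4 and the testis gene H1f6) against 3.53% of all promoters. TATATA was found in 5 of 11 against 2.97%, and TATAAA in 3 of 11 against 7.57%. H2ac19 had a single match, a CCAAT on the opposite strand 15 bases before the start, and H2bc22 had 3 CCAAT matches and no TATA form. The octamer was found in H2bc18 alone among the 11, against 0.998% of all promoters. These matches describe letters in a window and were not tied to the levels below.

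Among the linker histones, H1f2 (H1.2, formerly Hist1h1c, a main somatic H1) varied most between mice and H1f4 (H1.4, formerly Hist1h1e) was high in a single CCAT2-T mouse. H1f2 read 9.27, 9.02, 10.88 and 9.72 in the WT mice, 9.16, 9.71, 9.32 and 9.30 in CCAT2-G, and 9.27, 9.18, 9.95 and 9.53 in CCAT2-T. In the CCAT2-GT mice its lowest, median and highest values were 8.33, 10.18 and 11.02. The highest values thus fell in CCAT2-GT replicate 4 and WT replicate 3, the lowest in CCAT2-GT replicate 2, and the range of the CCAT2-GT mice enclosed that of every other group. The group means were 9.72 ± 0.83 in WT (SD, n = 4), 9.43 ± 0.28 in DRAI- (n = 8) and 9.95 ± 0.92 in DRAI+ (n = 6). A second H1f2 probeset ran closely with it over the 18 arrays (r = 0.98), and another, dimmer one less so (r = 0.36).

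H1f4 read 4.99, 4.91, 4.69 and 4.85 in WT, 4.63, 4.73, 4.86 and 4.06 in CCAT2-G, and 5.14, 4.35, 6.37 and 4.34 in CCAT2-T. In CCAT2-GT its lowest, median and highest values were 4.34, 5.10 and 5.69. The value of CCAT2-T replicate 3 stood 0.68 above the next mouse, CCAT2-GT replicate 2, which was the lowest mouse for H1f2. The germ-cell and replacement H1 genes varied less. Over the 18 mice H1f6 had an SD of 0.17, H1f10 of 0.17 and H1f7 of 0.27, against 0.68 for H1f2 and 0.55 for H1f4. For H1f6 the highest mice were CCAT2-T replicates 1 and 2 (4.63 and 4.48), both narrow arrays, and for H1f10 they were the same mice in the other order (4.45 and 4.27). H1f8, below the filter, read between 2.91 and 3.76.

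**Figure D1:**
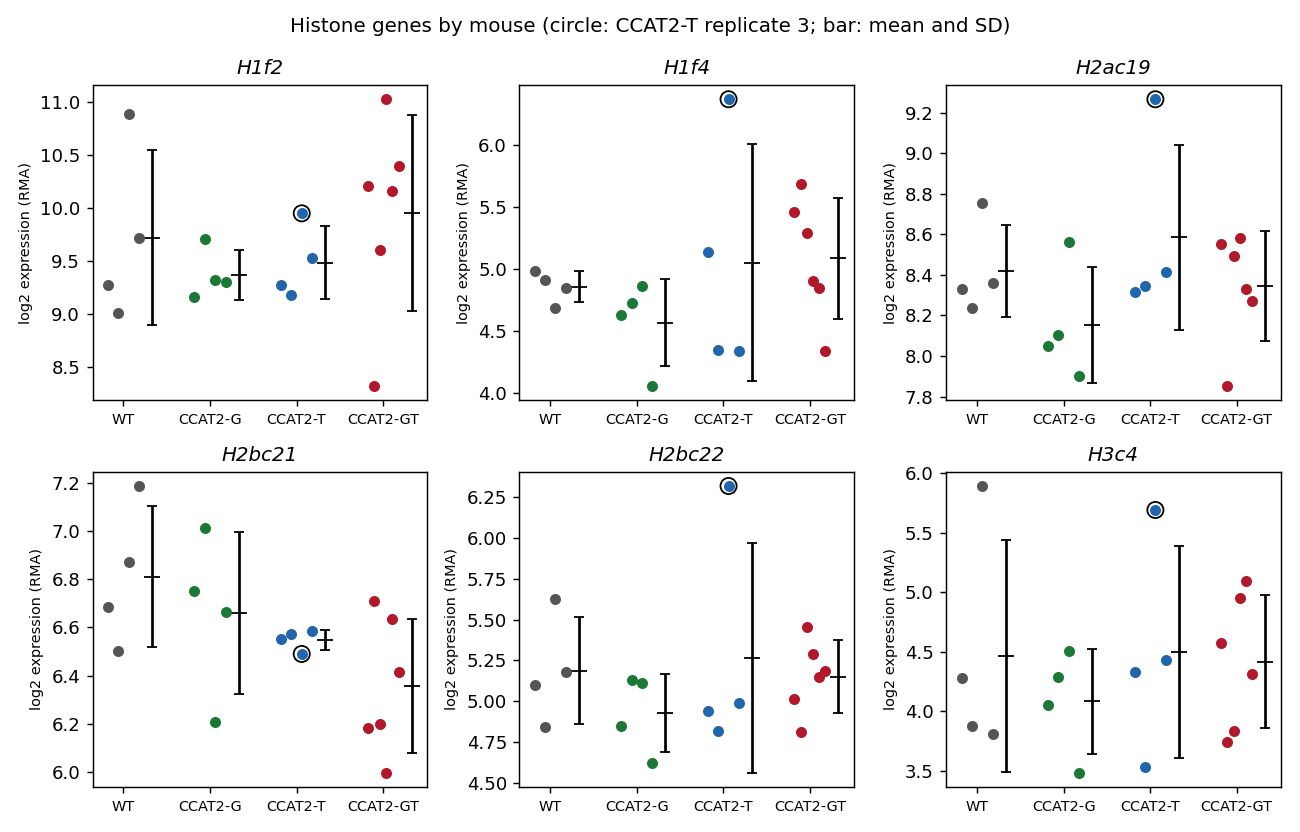
Log2 expression (RMA) of H1f2, H1f4, H2ac19, H2bc21, H2bc22 and H3c4, 1 point per mouse by group, with bars for the mean and SD of each group (n = 4, 4, 4 and 6); the vertical axes do not start at 0. CCAT2-T replicate 3 (circled) is the highest mouse for H1f4 (6.37), H2ac19 (9.27) and H2bc22 (6.32), while its H2bc21 value is 6.49, the lowest of the CCAT2-T mice. Groups overlap in every panel.

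H2ac19 (formerly Hist2h2aa2, a core histone H2A gene of the chromosome 3 cluster) lies at chr3:96239779-96240374 and was the only H2A gene read on its own. It read 8.33, 8.24, 8.75 and 8.36 in WT, 8.05, 8.10, 8.56 and 7.90 in CCAT2-G, and 8.32, 8.34, 9.27 and 8.42 in CCAT2-T. In CCAT2-GT its lowest, median and highest values were 7.85, 8.41 and 8.58. CCAT2-T replicate 3 was the highest mouse, 0.51 above WT replicate 3, and the other 3 CCAT2-T mice lay within the WT range. The group means were 8.42 ± 0.23 in WT (SD, n = 4), 8.15 ± 0.29 in CCAT2-G (n = 4), 8.59 ± 0.46 in CCAT2-T (n = 4) and 8.35 ± 0.27 in CCAT2-GT (n = 6). Its probeset is of the type whose probes can match other sequences too, and its second probeset followed the first (r = 0.91 over 18 arrays).

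The 3 H2B genes did not follow a common pattern. H2bc22 (formerly Hist1h2bp) read 5.10, 4.84, 5.63 and 5.18 in WT, 4.85, 5.13, 5.11 and 4.62 in CCAT2-G, and 4.94, 4.82, 6.32 and 4.99 in CCAT2-T. In CCAT2-GT its lowest, median and highest values were 4.81, 5.17 and 5.46. As for H2ac19, CCAT2-T replicate 3 was highest and WT replicate 3 next. H2bc21 (formerly Hist2h2be, at chr3:96221072-96223738) read 6.68, 6.50, 6.87 and 7.19 in WT, 6.75, 7.01, 6.21 and 6.66 in CCAT2-G, and 6.55, 6.57, 6.49 and 6.58 in CCAT2-T. In CCAT2-GT its lowest, median and highest values were 6.00, 6.31 and 6.71. For this gene WT replicate 4 was highest and CCAT2-GT replicate 4, the highest mouse for H1f2, was lowest. The WT mice were higher on average (6.81 ± 0.29, SD, n = 4) than the CCAT2-GT mice (6.36 ± 0.28, n = 6), and the 2 ranges overlapped. A second, dimmer H2bc21 probeset followed this one (r = 0.83 over 18 arrays). H2bc18 stayed between 3.39 and 3.98 in all mice.

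The H3 genes H3c7 and H3c4 (formerly Hist1h3f and Hist1h3d), at chr13:23544052-23544954 and chr13:23575763-23576266, were both highest in WT replicate 3. H3c7 read 3.82, 4.42, 6.24 and 4.96 in WT, 4.13, 4.30, 5.72 and 4.56 in CCAT2-G, 4.01, 4.44, 5.30 and 5.21 in CCAT2-T, and 3.89, 4.75 and 5.27 at the lowest, median and highest CCAT2-GT mouse. H3c4 read 4.28, 3.88, 5.89 and 3.81 in WT, 4.05, 4.29, 4.51 and 3.49 in CCAT2-G, 4.33, 3.54, 5.69 and 4.43 in CCAT2-T, and 3.74, 4.44 and 5.09 at the lowest, median and highest CCAT2-GT mouse. Replicate 3 was the highest mouse of its group for both genes, and for H2ac19, in WT, CCAT2-G and CCAT2-T alike, and the spread among the 4 WT mice reached an SD of 1.03 for H3c7 and 0.97 for H3c4. Deviations of same-numbered mice from their group means were also correlated over all genes tested. Among the mice numbered 3 this gave 0.50 for WT with CCAT2-G, 0.57 for WT with CCAT2-T and 0.28 for CCAT2-G with CCAT2-T. With CCAT2-GT replicate 3 the values were -0.09 (WT), -0.32 (CCAT2-G) and 0.05 (CCAT2-T). Mice numbered 1 gave 0.67, 0.51 and 0.44 for the first 3 pairs, so such values were not particular to number 3. The labels do not say what, if anything, a number shares. H3c11, with a mean of 3.74, varied little (SD 0.18 over 18 mice).

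Of the 17 probesets shared by several histone genes, 13 passed the filter. The H2A probeset assigned to 10 genes had a mean of 13.31 and an SD of 0.17 over the 18 mice; array signals are known to flatten at such high levels. The H2B probeset assigned to 11 genes read 10.00, 9.73, 10.57 and 10.60 in WT, 9.73, 10.07, 9.87 and 9.38 in CCAT2-G, 9.85, 9.67, 11.41 and 9.82 in CCAT2-T, and 9.68 to 10.32 in CCAT2-GT. The H3 probeset assigned to 12 genes read 8.68, 8.40, 9.19 and 9.42 in WT, 8.39, 8.71, 8.25 and 7.93 in CCAT2-G, 8.77, 8.22, 10.71 and 8.50 in CCAT2-T, and 8.18 to 8.91 in CCAT2-GT. In both, CCAT2-T replicate 3 was highest and CCAT2-G replicate 4 lowest of the 18 mice. Histone H4, absent from the single-gene members, was read by probesets assigned to 13 genes. The brightest read 9.05, 8.78, 9.49 and 9.77 in WT, 8.71, 9.12, 8.92 and 8.37 in CCAT2-G, 9.19, 8.70, 10.78 and 9.05 in CCAT2-T, and 8.92 to 9.32 in CCAT2-GT. CCAT2-T replicate 3 was the highest mouse for this H4 probeset and for the other 2 above the filter. Genes on a shared probeset share its signal, and H2ac19, H2bc22, H3c4, H3c7 and H3c11 are also listed on shared probesets.

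**Figure D2:**
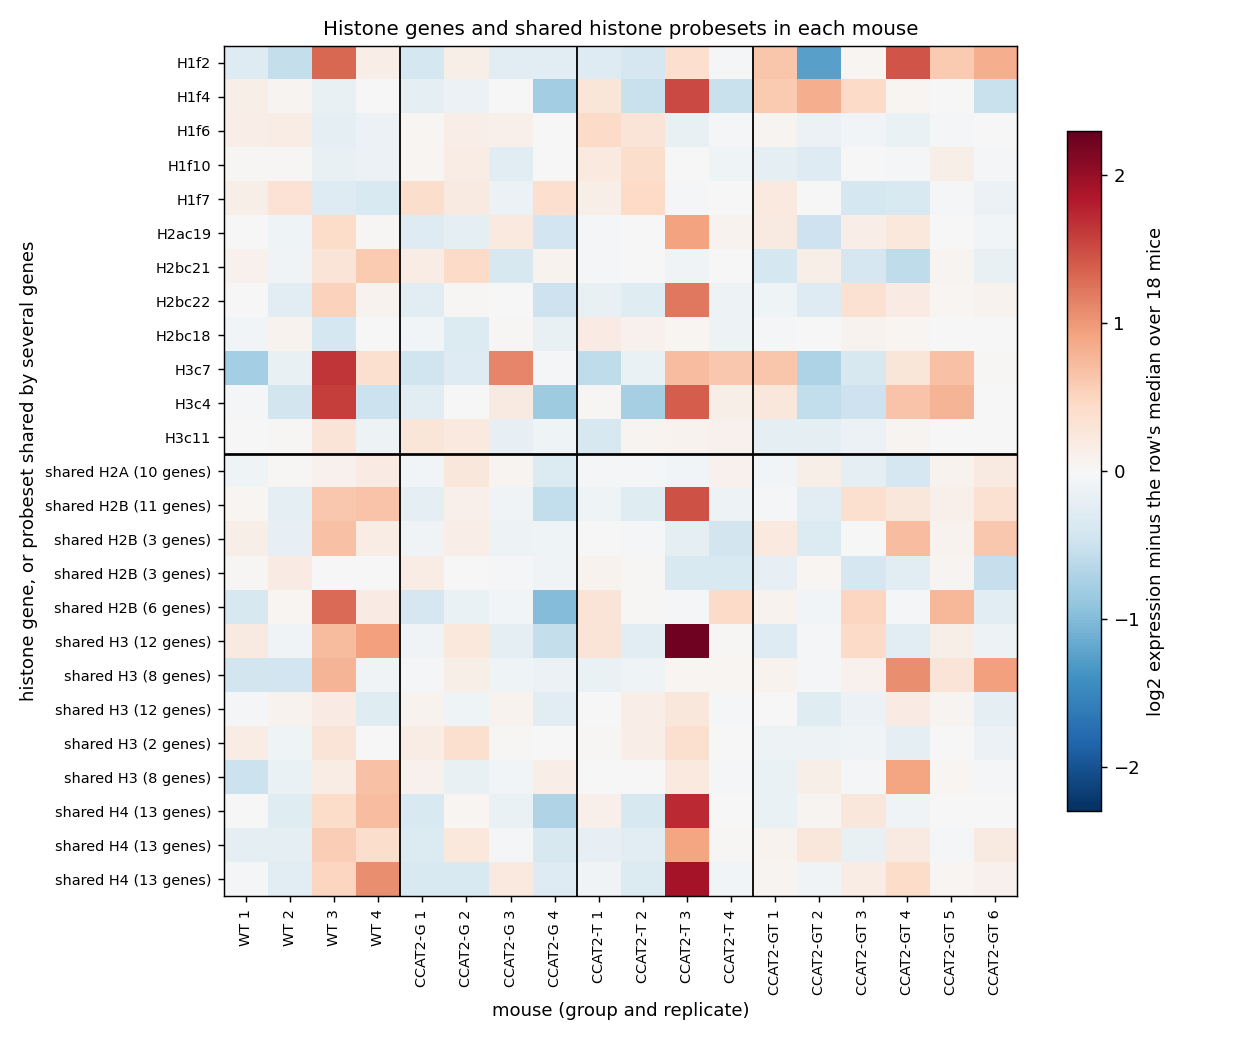
Log2 expression of the 12 tested histone genes (above the black line) and the 13 shared histone probesets above the filter (below it) in each of the 18 mice, as the difference from the median of that gene or probeset over the 18 mice (red above, blue below). CCAT2-T replicate 3 forms a red column through H1f4, H2ac19, H2bc22, H3c4 and the brightest shared H2B, H3 and H4 probesets, and WT replicate 3 a second one through H1f2, H3c7 and H3c4.

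CCAT2-T replicate 3 was the highest of 18 mice for 3 of the 12 tested genes (H1f4, H2ac19 and H2bc22) and for 7 of the 13 shared probesets, where it was the highest mouse for 8.77% of all 14505 genes tested. Relative to the median of the other 17 mice it stood 1.52 higher for H1f4, 0.93 for H2ac19, 1.22 for H2bc22, 1.40 for H3c4, 2.27 for the H3 probeset of 12 genes and 1.73 for the brightest H4 probeset. Across all genes tested, 0.8% stood at least 1 above that median in this mouse. On the same measure H2bc21 stood at -0.09 and the brightest H2B probeset of 3 genes at -0.22. Of the remaining members, H1f6 stood at -0.18, H1f7 at -0.04, H1f10 at 0.01, H2bc18 at 0.05, H3c11 at 0.08, H1f2 at 0.42 and H3c7 at 0.73. The H2A probeset of 10 genes stood at -0.08 and a dimmer H2B probeset of 3 genes at -0.36. The other shared probesets ran from -0.07 to 1.97. Values at low level, such as H1f6 (mean 4.21) and also H3c4 (mean 4.37), or at very high level, as for the H2A probeset, say less on this measure.

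The same mouse did not stand high for cell-cycle genes. Its mean over 35 S-phase genes was 8.56 beside a median of 8.55 over the 18 mice, and its mean over 19 mitosis genes was 8.96 beside 9.12. Its mean over 10 replacement variants, among them H2az1, H3f3b and the member H1f10, was 8.68, the highest of the 18. H3f3b varied widely over the 18 mice (4.34 to 9.64) and was highest in this mouse. Over the 8 variants without H3f3b and H1f10 its mean was 9.14, also the highest, beside 9.03 in WT replicate 3. This mouse had high Xist, a wider array, and the lowest megakaryocyte marker mean of the 18 mice (6.16 beside a median of 7.47, over 12 markers). Its stroma marker mean was 4.29 (median 5.51 over 18 mice, 19 markers). The part of these in the histone values was not tested. WT replicate 3 was the highest mouse for 3 tested members (H3c4, H3c7 and H3c11) where it was highest for 3.59% of all genes, and CCAT2-G replicate 4 was the lowest for 3 (H1f4, H2bc22 and H3c4) and for 5 shared probesets, where it was lowest for 5.74% of all genes. CCAT2-GT replicate 2 was also the lowest for 3 members (H1f2, H1f10 and H2ac19; 5.75% of all genes), and WT replicate 3 for 2 (H1f6 and H2bc18; 6.31%). CCAT2-T replicates 1 and 2 were each the highest for 2 members of low level (H1f6 and H2bc18, and H1f7 and H1f10; 9.47% and 6.03% of all genes). CCAT2-GT replicate 4 was the highest for H1f2 and for 3 shared probesets (5.52% of all genes).

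Between DRAI+ and WT mice no histone gene passed the test. Of the 12 genes tested, 3 were higher (H2bc18, H1f4 and H1f2) and 9 lower in the DRAI+ mice, with a median difference of -0.05 beside -0.002 over all 14505 genes. Called genes numbered 0 of 12 and 0% of all genes in limma's moderated test with Benjamini-Hochberg adjustment at 0.05. At an unadjusted p under 0.05 the counts were 1 of 12 members and 382 of all genes (1.18% higher and 1.45% lower). That 1 was H2bc21, a gene of H2B known to make polyadenylated mRNA in non-dividing cells, with a difference of -0.45 (SE 0.17, limma adjusted p = 0.9999). It was -0.21 with array weights, -0.25 without the 3 arrays richest in stroma markers and -0.67 without the 5 narrow arrays. H1f2 differed by 0.23 (SE 0.39) and H1f4 by 0.23 (SE 0.33), each with a limma adjusted p of 0.9999. The sign for H1f2 turned without the 5 narrow arrays (-0.35), without those 3 arrays (-0.15) and with array width as a block (-0.09), while it was 0.82 without the 4 arrays of high Xist and 0.72 with array weights. Over the 9 replication-dependent genes alone the median was -0.04, with 3 higher and 6 lower. No member had ranges that did not overlap, where 0.338% of all genes did so higher and 0.414% lower.

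DRAI- mice likewise gave 0 of 12 called against WT (0% of all genes), and no member reached an unadjusted p under 0.05, where 197 of all genes did (0.993% higher and 0.365% lower). The members were higher in 4 and lower in 8, with a median of -0.05 beside 0.001 over all genes, and 1 of the 9 replication-dependent genes was higher (H2bc18). H1f2 differed by -0.29 (SE 0.37) and H3c4 by -0.17 (SE 0.39), each with a limma adjusted p of 0.9992. Both signs rested on WT replicate 3: without it the differences were 0.09 and 0.30, and the median over members was 0.06 in place of -0.05. None of the 12 had ranges that did not overlap (0.0345% of all genes higher and 0.0276% lower).

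Between DRAI+ and DRAI- mice the largest member difference was in H1f2, 0.52 higher in DRAI+ (SE 0.33, limma adjusted p = 0.5737), with overlapping ranges (8.33 to 11.02 and 9.16 to 9.95). It was 0.31 without CCAT2-GT replicate 4, 0.85 without CCAT2-GT replicate 2 and 0.15 without CCAT2-GT replicates 4 and 6, which were rich in stroma and megakaryocyte markers. The second H1f2 probeset had means of 9.01 in DRAI+ and 8.43 in DRAI-. The dimmest had means of 5.11 in CCAT2-GT, 4.89 in CCAT2-G and 5.25 in CCAT2-T. H1f7, the spermatid H1, had the smallest p, with a difference of -0.29 (SE 0.13, limma adjusted p = 0.5041) at levels near the filter. A second H1f7 probeset, with a mean of 2.26, ran only loosely with the first (r = 0.40 over 18 arrays). H1f4 differed by 0.28 (SE 0.28) and, without CCAT2-T replicate 3, by 0.50, with limma adjusted p of 0.7179 and 0.4685. H2bc21 differed by -0.25 (SE 0.14, limma adjusted p = 0.5526). In all 5 members were higher and 7 lower, with a median of -0.02 beside -0.007 over all genes, and 0 of 12 were called (0% of all genes). Over the 9 replication-dependent genes 5 were higher and 4 lower, with a median of 0.05, and the median over members changed sign in 9 of 36 alternatives. At an unadjusted p under 0.05 stood 1 member (H1f7) and 1388 of all genes (3.84% higher and 5.73% lower). No member had ranges that did not overlap (0.00689% of all genes higher, 0.0896% lower). These 3 comparisons share mice, so their values are not independent of each other.

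**Figure D3:**
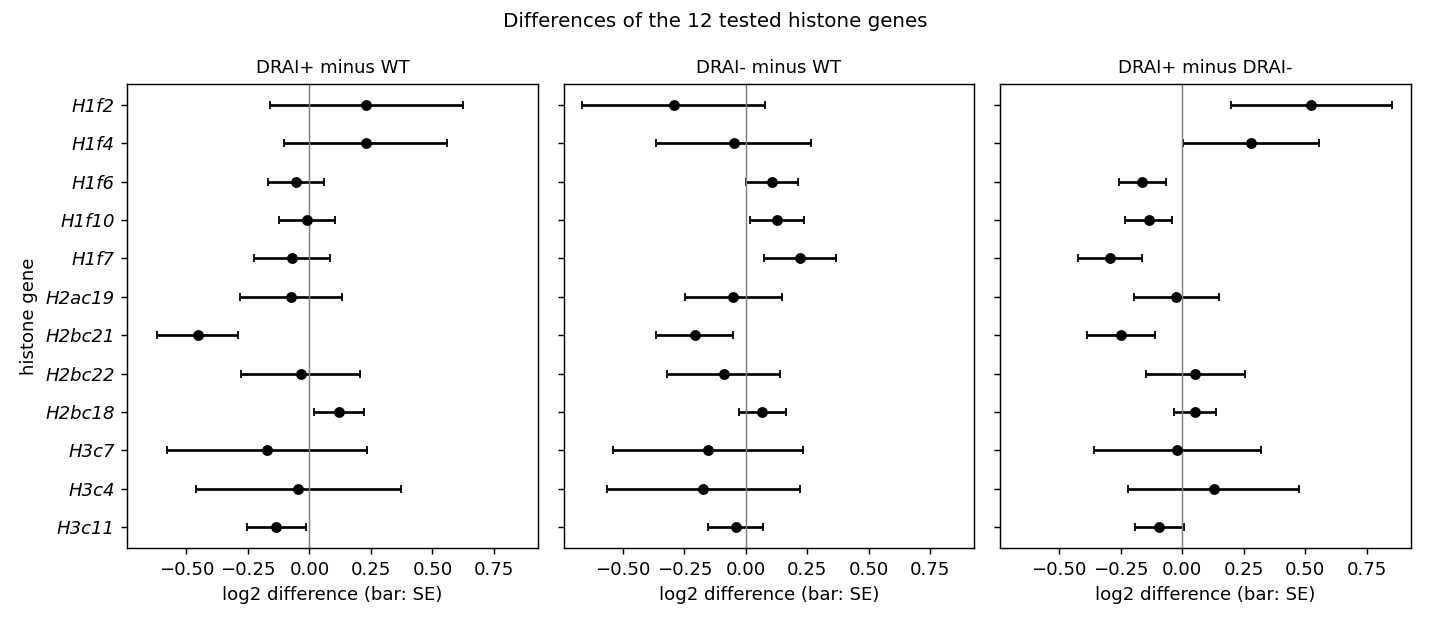
Log2 difference of each of the 12 tested histone genes in 3 comparisons, from limma on all 18 arrays, with bars for 1 SE. H2bc21 in DRAI+ minus WT (-0.45) and H1f2 in DRAI+ minus DRAI- (0.52) lie farthest from 0, and no gene passed the adjusted threshold in any panel.

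The allele comparisons, which ask whether the G and T forms of CCAT2 differ, also gave 0 of 12 called in each (0% of all genes in each). In CCAT2-G against WT, 4 members were higher and 8 lower, with a median of -0.17 beside 0.01 over all genes; without WT replicate 3 the median was 0.02. H2ac19 differed by -0.27 (SE 0.21) and H2bc22 by -0.26 (SE 0.26), each with a limma adjusted p of 0.9999; without WT replicate 3 the differences were -0.16 and -0.11. In CCAT2-T against WT, 8 were higher and 4 lower, with a median of 0.11 beside 0.002. Without CCAT2-T replicate 3 that median was -0.18, so its sign rested on 1 mouse. In CCAT2-G against CCAT2-T, 3 were higher and 9 lower, with a median of -0.12 beside -0.003, and without CCAT2-T replicate 3 it was -0.001. H2ac19 had the smallest p there, with a difference of -0.43 (SE 0.21, limma adjusted p = 0.7788), and -0.20 without that mouse (limma adjusted p = 0.9471). At an unadjusted p under 0.05 stood 0 members in each of the 3, and 228, 451 and 912 of all genes. As shares these were 0.917%, 1.7% and 4.21% higher, and 0.655%, 1.41% and 2.08% lower. No member had ranges that did not overlap in any of the 3, where 0.462%, 0.848% and 1.16% of all genes did so higher and 0.421%, 0.841% and 1.13% lower.

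The shared probesets, fitted beside all 31571 probesets above the filter, gave 0 of 13 called in each of the 6 comparisons, beside 0.00633% of all probesets in DRAI+ against DRAI- and 0% in the other 5. At an unadjusted p under 0.05 there were 3 of 13 in DRAI+ against DRAI- (2 higher and 1 lower, where 4.41% of all probesets were higher and 5.4% lower). There was 1 in CCAT2-G against WT, an H2B probeset that was lower (0.697% of all probesets lower and 0.868% higher). There were 0 in DRAI+ against WT (1.09% higher and 1.33% lower over all probesets), DRAI- against WT (0.966% and 0.519%), CCAT2-T against WT (1.9% and 2.25%) and CCAT2-G against CCAT2-T (4.4% and 2.53%). In DRAI+ against WT, 3 were higher and 10 lower (median -0.12). In DRAI+ against DRAI-, where 7 were higher and 6 lower (median 0.03), an H3 probeset of 8 genes differed by 0.45 (SE 0.19, limma adjusted p = 0.4740), an H2B probeset of 3 genes by 0.33 (SE 0.15, adjusted p = 0.5075) and an H3 probeset of 2 genes by -0.25 (SE 0.09, adjusted p = 0.4464). The first 2 were highest, within the CCAT2-GT group, in replicates 4 and 6 (6.04 and 5.91 for the H3 probeset beside 4.94 to 5.27 in the other 4, and 9.57 and 9.49 for the H2B probeset beside 8.54 to 9.08). Those arrays were among the 3 richest in stroma markers and had the highest megakaryocyte marker means of the 18 (10.71 and 10.36). Without those 2 mice the differences were 0.15, 0.10 and -0.22; the part of these cells in the values was not tested. In CCAT2-G against CCAT2-T, the brightest H3 and H4 probesets differed by -0.73 (SE 0.38, limma adjusted p = 0.7208) and -0.65 (SE 0.32, adjusted p = 0.7163), and by -0.18 and -0.20 without CCAT2-T replicate 3.

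Some pairs of histone genes, chosen after the values of each mouse had been seen, varied together across the 18 mice. The permutation p-values do not allow for that choice. Single genes outside the members reached r of -0.92 (Ciao2b) and 0.86 (Abca7) with H2ac19, and 0.85 (Khsrp) with H1f2. H2ac19 varied with H2bc22 (Pearson r = 0.88, Spearman rho = 0.70, permutation p adjusted over 18 relations 2e-04 and 0.0073), and r was 0.74 without the 2 mice farthest from the median of H2ac19, 0.75 without CCAT2-T replicate 3 alone and 0.89 within the 13 wider arrays. H2ac19 lies on chromosome 3 and H2bc22 on chromosome 13, yet both probesets are of the type open to cross-matching. The relations of H2ac19 with the brightest H4 and H3 probesets (r = 0.74 and 0.69) rested on CCAT2-T replicate 3: without that mouse r was 0.43 and 0.32, and Spearman's rho over all 18 was 0.33 and 0.26 (permutation p adjusted over 18 relations 0.28 and 0.36). With the 2 farthest mice left out r was 0.54 and 0.33, and within the wider arrays it was 0.73 and 0.70.

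H1f2 followed the H2B probeset assigned to H2bc4, H2bc6 and H2bc8 (r = 0.82, rho = 0.70, permutation p adjusted over 18 relations 6e-04 and 0.0073), with r of 0.65 without the 2 farthest mice and 0.83 within the wider arrays. Both were highest in CCAT2-GT replicate 4 and WT replicate 3. H1f2 also ran with H3c7 (r = 0.62, rho = 0.67, adjusted permutation p = 0.011 and 0.0099; r = 0.55 without the 2 farthest and 0.53 within the wider arrays), and H3c4 with H3c7 (r = 0.70, rho = 0.66, adjusted permutation p = 0.0048 and 0.012; r = 0.50 and 0.75). H1f2 and H2ac19 were related as well (r = 0.56, rho = 0.62, adjusted permutation p = 0.03 and 0.019; r = 0.57 and 0.53), with r of 0.68 without CCAT2-T replicate 3. For H2ac19 and H1f4 r was 0.51 and rho 0.27 (adjusted permutation p = 0.057 and 0.36), and without CCAT2-T replicate 3 r was 0.09. No relation of H2bc21 with either passed the threshold: r was -0.33 with H2ac19 and -0.24 with H1f2 (rho -0.45 and -0.27, adjusted permutation p for r 0.25 and 0.43). The pairs were chosen after the values of each mouse had been seen, and the mice include all 4 groups.

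No relation of the S-phase or mitosis genes with H2ac19 or H1f2 passed the threshold. The mean of 35 S-phase genes gave r = -0.04 with H2ac19 and 0.18 with H1f2 (rho 0.06 and 0.35, permutation p adjusted over 18 relations for r 0.88 and 0.56). The mean of 19 mitosis genes gave r = -0.12 and 0.09 (rho 0.02 and 0.23, adjusted permutation p for r 0.72 and 0.76). Within the 13 wider arrays these 4 values of r were -0.19, -0.07, -0.29 and -0.18, and without the 2 farthest mice they were 0.00, 0.23, 0.09 and 0.46. For the S-phase list, WT replicate 4 was the highest mouse at 9.09 while its H2ac19 value, 8.36, lay within the range of the other WT mice.

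Replacement variants are for the most part made from polyadenylated mRNA and not only in S phase. Among them H3f3b read 9.55 in WT replicate 3, 9.64 in CCAT2-T replicate 3 and 8.73 in CCAT2-T replicate 4. It read 8.97 in CCAT2-GT replicate 1 and 8.66 in CCAT2-GT replicate 5, and 6.91 or less in the other 13 mice. These values fall into separate clusters, which limits what a correlation shows. H3f3b gave r = 0.73 and rho = 0.75 with H2ac19 (permutation p adjusted over 18 relations 9e-04 and 0.0056). The mean of all 10 variants gave 0.75 and 0.74 with H2ac19 (adjusted permutation p = 9e-04 and 0.0056), and 0.50 and 0.55 with H1f2 (0.055 and 0.038). Without CCAT2-T replicate 3 and WT replicate 3 these 3 values of r were 0.55, 0.51 and 0.38. The mean of the 8 variants other than H3f3b, with H1f10 left out as a member, gave r = 0.63 with H2ac19 (rho = 0.55, permutation p adjusted over 18 relations 0.011 and 0.038). This r was 0.63 within the wider arrays and 0.23 without CCAT2-T replicate 3 and WT replicate 3, so that the relation of these 8 rested on those 2 mice.

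**Figure D4:**
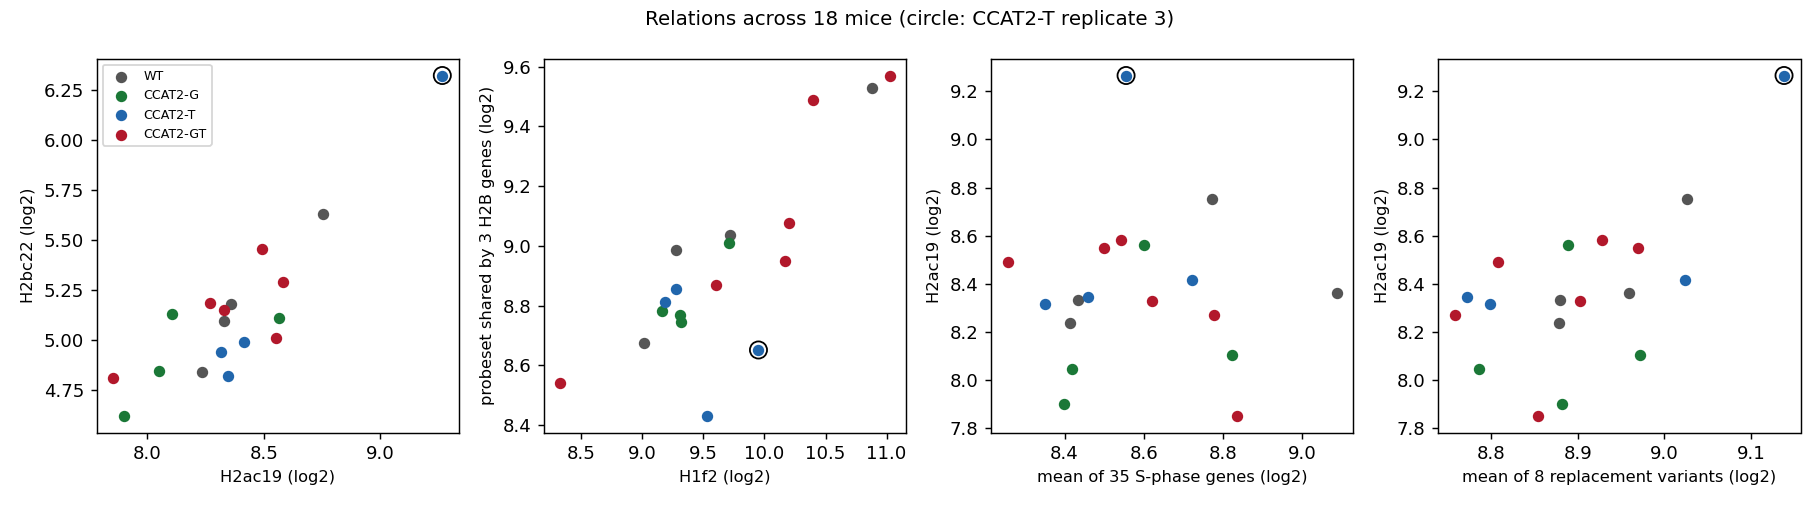
Log2 levels in 18 mice (1 point per mouse, coloured by group; CCAT2-T replicate 3 circled). From left to right the panels set H2bc22 against H2ac19 (r = 0.88), the H2B probeset shared by 3 genes against H1f2 (r = 0.82), H2ac19 against the mean of 35 S-phase genes (r = -0.04), and H2ac19 against the mean of 8 replacement variants (r = 0.63, and 0.23 without 2 mice).

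The genes that make and load histones gave 0 called in either direction in each of the 6 comparisons, as did the cell-cycle lists. Of 16 genes of histone gene expression and mRNA processing, 7 were higher and 9 lower in DRAI+ than in WT (median -0.003), 10 higher and 6 lower in DRAI- than in WT (median 0.04), and 7 higher and 9 lower in DRAI+ than in DRAI- (median -0.03). Slbp, the stem-loop binding protein, differed by -0.18 between DRAI+ and WT (SE 0.15), and Npat by -0.19 (SE 0.16), each with a limma adjusted p of 0.9999. Lsm10 and Lsm11, parts of the U7 particle that cuts histone pre-mRNA, had the smallest p in DRAI+ against DRAI- and in DRAI+ against WT, with differences of 0.37 (SE 0.16, limma adjusted p = 0.4922) and 0.16 (SE 0.09, limma adjusted p = 0.9999). Cpsf2, a subunit of the cleavage complex, differed by -0.42 between CCAT2-T and WT (SE 0.13, limma adjusted p = 0.9279).

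Of 19 histone chaperones, which carry histones to DNA, 5 were higher and 14 lower in DRAI+ than in WT (median -0.06), and 7 higher and 12 lower in DRAI- than in WT (median -0.07). The replication chaperone subunit Chaf1b differed by -0.27 between DRAI- and WT (SE 0.21) and Nasp, a carrier of H3 and H4, by -0.21 (SE 0.19), each with a limma adjusted p of 0.9992. Of 35 S-phase genes, 7 were higher and 28 lower in DRAI+ than in WT (median -0.10), 2 higher and 33 lower in DRAI- than in WT (median -0.13), and 22 higher and 13 lower in DRAI+ than in DRAI- (median 0.06). Of 19 mitosis genes, 3 were higher and 16 lower in DRAI+ than in WT (median -0.04) and 0 higher and 19 lower in DRAI- than in WT (median -0.18). These counts depended on WT replicate 4, the highest mouse for both lists and the WT array richest in stroma markers. Without it 23 S-phase genes were higher and 12 lower in DRAI+ than in WT (median 0.05) and 16 higher and 19 lower in DRAI- (median -0.005). The mitosis genes then gave 13 higher and 6 lower in DRAI+ (median 0.07) and 7 higher and 12 lower in DRAI- (median -0.06), and the chaperones 10 and 9 (median 0.0005) and 8 and 11 (median -0.02). Of the markers of dividing lineages, between DRAI+ and WT 0 of 17 pre-B markers were higher and 17 lower (median -0.79), and 0 of 19 erythroid markers were higher and 19 lower (median -0.25), while 6 of 9 granulocyte precursor markers were higher and 3 lower (median 0.13), with 0 called in any. Between DRAI- and WT, 14 pre-B markers were higher and 3 lower (median 0.13). All 19 erythroid markers (median -0.21) and all 9 granulocyte precursor markers (median -0.26) were lower there, again with 0 called. Between DRAI+ and DRAI- the erythroid markers were 9 higher and 10 lower (median -0.03). The pre-B marker mean was 8.20 and 8.14 in WT replicates 1 and 2, both narrow arrays, and 7.00 and 6.71 in WT replicates 3 and 4. It ran from 5.60 to 7.36 in CCAT2-GT, where no array was narrow, and the 2 wider WT arrays lay within that range. Array width and group thus overlap in part, and only those 2 WT arrays compare with CCAT2-GT at like width. Without CCAT2-GT replicates 4 and 6 the pre-B, erythroid and granulocyte precursor medians between DRAI+ and WT were -0.70, -0.15 and -0.02. The part of these lineages in the histone values was not tested.

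The genes outside the members whose levels ran closest to the per-mouse mean of the 12 tested members, over 18 arrays, were Sfmbt2 (r = 0.84), Ing2 (r = 0.84), Egr2 (r = 0.82), Fosb (r = 0.82) and Rbm39 (r = 0.81). Egr2 and Fosb are immediate-early transcription factors. Fosb ranged from 2.38 to 7.82, with its highest value in CCAT2-T replicate 3, which was also highest for Ing2, Egr2 and Rbm39. Without that mouse the 5 values of r were 0.87, 0.77, 0.70, 0.73 and 0.69. In the opposite direction stood Med11 (r = -0.82), Ciao2b (r = -0.82), Fam3c (r = -0.82), Abcf2 (r = -0.80) and Alg14 (r = -0.79), each lowest in CCAT2-T replicate 3. Taken alone, H2ac19 ran closest to Abca7 (r = 0.86) and farthest from Ciao2b (r = -0.92, and -0.85 without CCAT2-T replicate 3), and H1f2 ran closest to Khsrp (r = 0.85, both with and without it). These are the extremes among 14505 genes and are given as a description.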

How the data were processed

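The authors deposited log2 expression values normalized with RMA, per the submitters' processing notes, for 45101 probesets on 18 Affymetrix arrays (biotin-labelled cRNA, per the labels' protocols); the software version is not given in the sources used here. RMA equalises the distribution of probe intensities between arrays, so a shift shared by most genes is largely removed. The deposited probeset values still differed in spread (interquartile range 2.90 to 3.36) and in array median (4.27 to 4.40). Arrays give no read depth, and their number limits the precision. Groups and replicate numbers came from the titles. The members and all gene lists were chosen with earlier results of these data known.

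In the platform annotation 34958 probesets carried 1 symbol and 932 several. A gene was read from its brightest probeset, and genes with a mean under the 30th percentile (3.30) were left out, which kept 14505. Differences are the first group named minus the second, from limma (version 3.58.1, R 4.3.3) over the 18 arrays together, using lmFit and eBayes with an intensity trend; the model held 3 groups (WT, DRAI-, DRAI+) or 4 (alleles). P-values were adjusted over all genes with Benjamini and Hochberg's method. The procedure was tested on simulated data. Named with differences were the members of smallest p in each direction, with list genes likewise; the most like genes are the 5 of highest and of lowest r, without predicted genes. Further members and shared probesets were named after their values were seen. Correlations used 100000 permutations, two-sided. The H1f0 gene and others without a single-symbol probeset were not analysed here.

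Same-numbered mice of different groups were checked for a common deviation: the correlations of their deviations from the group means ran from -0.36 to 0.67. All 4 lay above 0.1 only for WT with CCAT2-T (0.19 to 0.57), the one comparison in which the numbers were treated as pairs, from the data and not from any label; the unblocked fit stayed the main one. Alternatives were other filters and normalizations, other eBayes settings, array weights, averaging the probesets of a gene, testing all probesets, a replicate block, array width as a block, the identifier letter as a covariate, the compared groups alone, and leaving out mice.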

Additional observations from a re-analysis of the deposited data

Results flagged for a closer look

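In 9 of 100 combinations of a group with a histone gene or shared probeset (25 items in 4 groups), 1 mouse stood apart from the rest of its group by Dixon's 95% criterion, which chance alone meets in about 1 of 20 groups. The items share mice and probes, so the 100 are not independent. CCAT2-T replicate 3 accounted for 4 of the 9. In this mouse H2ac19 was 9.27 beside 8.32 to 8.42 in the other 3 CCAT2-T mice, and H2bc22 was 6.32 beside 4.82 to 4.99. The H2B probeset shared by 11 genes was 11.41 beside 9.67 to 9.85, and an H4 probeset shared by 13 genes was 6.28 beside 4.04 to 4.28.

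The other 5 came from 5 different mice. H3c11 was 3.39 in CCAT2-T replicate 1 beside 3.82 to 3.85 in the rest of its group, at a level near the filter. The H2B probeset that followed H1f2 across mice was 9.01 in CCAT2-G replicate 2 beside 8.74 to 8.78, and a dimmer H2B probeset of the same 3 genes was 5.25 in WT replicate 2 beside 5.06 to 5.09. A dim H3 probeset of 8 genes was 4.36 in CCAT2-GT replicate 4 beside 3.29 to 3.58. The H4 probeset named above was 4.58 in CCAT2-G replicate 3 beside 4.00 to 4.06.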

How the results depend on the processing

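In every alternative fitted the count of histone genes called stayed at 0, in each of the 6 comparisons. Other genes were called in few fits: 456 with array weights in DRAI+ minus WT, 7 without CCAT2-G replicate 3 in DRAI+ minus DRAI-, and 1 in each of 4 fits of CCAT2-G minus CCAT2-T. The median over members moved beyond 1 within-group SD (0.20) in 2 comparisons: for CCAT2-T minus WT it was -0.18 without the 4 mice of high Xist and ran from -0.18 to 0.18 as each mouse was left out, and for CCAT2-G minus CCAT2-T it was -0.34 with a filter at the 50th percentile, which leaves fewer genes.

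Of 995 values of named genes under an alternative, 978 kept their sign and 17 turned, none of them past the threshold in either direction. Many of the 995 could not turn. Other eBayes settings, other filters and the compared groups alone leave a difference as it is. Leaving out a mouse of a group not compared does so too. H1f2 in DRAI+ minus WT turned to -0.35 without the 5 narrow arrays, -0.15 without the 3 stroma-rich arrays and -0.087 with array width as a block, and H1f6 there to 0.11 without the narrow arrays and 0.082 with the block on width. With array weights, H2bc21, H1f2 and H3c4 turned to 0.040, 0.15 and 0.035 in DRAI- minus WT and H1f6 to -0.028 in CCAT2-G minus WT. H3c11 in CCAT2-G minus CCAT2-T turned to -0.11 without the narrow arrays. As each mouse was left out, H1f2 ran from -0.0045 to 0.62 and H1f6 from -0.12 to 0.0005 in DRAI+ minus WT. H1f2 ran from -0.53 to 0.093 and H3c4 from -0.39 to 0.30 in DRAI- minus WT, and H3c11 from -0.14 to 0.025 in CCAT2-T minus WT. H2bc21 ran from -0.0083 to 0.26 and H3c11 from -0.024 to 0.16 in CCAT2-G minus CCAT2-T. Apart from the array weights and the settings that leave arrays out or block on width, the cause was not tested.

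With the replicate number as a block, 0 members were called and 0 of 30 named differences turned. The medians were -0.07, -0.05, -0.07, -0.17, 0.11 and -0.12 in the order of the comparisons above. WT, CCAT2-G and CCAT2-T hold the same replicate numbers, once each, so the block could not change differences among them, DRAI- minus WT included. Only the differences of the DRAI+ mice could move. For CCAT2-T minus WT, where the numbers deviated together, the block changed no call (0 of all genes); elsewhere the mice share only a number. The identifier letter could be fitted only for DRAI+ minus DRAI-, and 4 groups in the model only apply to the 3 comparisons of WT, DRAI- and DRAI+. The settings restricted to the 9 replication-dependent members, the shared probesets, their values and those of the gene lists without single mice, the values without CCAT2-GT replicates 4 and 6, likeness to single genes and the relations across mice were chosen after seeing the data.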

Other observations

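The promoter motifs were also counted over all histone genes of the RefSeq table, most of them not read singly by the array. A CCAAT match within 150 bases of the start was found in 17 of 17 H2A, 15 of 15 H2B, 8 of 10 H3 and 7 of 10 H1 genes of the RefSeq table, and in 3 of 11 H4 genes, beside 24.5% of all promoters. The octamer was found in 6 of 15 H2B and 4 of 17 H2A genes and in 0 of 10 H1, 0 of 10 H3 and 0 of 11 H4 genes. The H1 box was found in 5 of 10 H1 genes.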
